A study of Mus musculus with 2 samples.

Results

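Pluripotent cells without the transcription factor SRF were compared with wild-type cells after mixtures of other cell types and shallow cells had been removed. The cells were selected on measured values: at least 1000 detected genes, at least 15000 unique molecular identifiers (UMIs, each standing for 1 captured RNA molecule), and 1 to 10% mitochondrial UMIs. They also held at most 1 UMI summed over 8 primitive endoderm genes (Gata6, Gata4, Sox17, Pdgfra, Dab2, Cubn, Lrp2 and Amn) and under 5 UMIs summed over 3 fibroblast genes (Col1a2, Col3a1 and Acta2). The rule kept 1200 of 2027 deposited cells, 483 of 1073 (45.0%) in the SRF KO library and 717 of 954 (75.2%) in the WT library. Both libraries came from mouse induced pluripotent stem cells (iPSCs, somatic cells returned to pluripotency), in medium that contained serum. The KO cells carried the recombined SRFΔ/Δ alleles and the WT cells the intact floxed SRFf/f alleles. Whether either line was 1 clone is not given in the sources used here, and the bulk RNA sequencing named in the design was not analysed here. Each genotype had 1 library, so every difference describes these libraries, with no replicate check and no p-value. Intervals are exact 95% intervals that cover counting error only.

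SRF (serum response factor) binds a DNA element called the CArG box. With cofactors of the ternary complex family it switches on immediate early genes when growth factors in serum activate ERK signalling, and with myocardin-related cofactors it drives actin and contractile genes when the pool of free actin monomers falls. Mouse pluripotent cells move between a naive state, held by factors such as Nanog, Esrrb and Klf4, and a primed state closer to differentiation.

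The kept cells matched their label. Pou5f1, the central pluripotency factor, was detected in 483 of 483 KO cells and 714 of 717 WT cells, and Sox2, its partner, in 96.9% and 95.8%. Nanog was detected in 68.1% of KO cells (interval 63.8 to 72.3) and 83.5% of WT cells (80.6 to 86.2), and Esrrb in 70.4% (66.1 to 74.4) and 79.5% (76.4 to 82.4). Fewer KO cells than WT cells thus gave a UMI of the last pair, at median depths of 26606 and 28687 UMIs. All 4 genes were found together in 244 KO cells (50.5%) and 476 WT cells (66.4%), and none of them in 0 and 2 cells. In the cells that the fibroblast genes removed, 22 KO and 10 WT cells with median depths of 26799 and 20188 UMIs, Nanog was detected in 4.55% and 10% of cells, so the shares in the kept cells lay above that of cells that should lack the gene. The libraries shared 2 cell barcodes, and 0 among the kept cells.

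Some technical measures differed between the kept sets. They held 13610597 and 21161028 UMIs in KO and WT, with medians of 4411 and 4428 genes a cell and of 4.4% and 3.39% mitochondrial UMIs. The lowest total kept was 15049 UMIs in KO and 15038 in WT, and the highest left out 14868 and 14961. The lowest mitochondrial share kept was 1.14% and 1.09%, and the highest left out under that limit 0.993% and 0.970%. In 240 KO cells (49.7%) and 69 WT cells (9.62%), chromosome 8 took a share of UMIs more than 1.2 times the WT median, so values in cells of usual and raised share are given for lists whose medians differed by much between them and for some single genes. Such list medians set KO cells of either kind against WT cells of usual share. Markers of other cell types outside the rule were measured too. The 18 other primitive endoderm genes summed to 794 CPM (UMIs scaled to a library sum of 1000000) in KO and 961 CPM in WT, with Ttr at 0 in both, and 15 other fibroblast genes to 437 and 378 CPM, with Lum at 0. Of the 4 other fibroblast genes of at least 10 CPM, 3 were lower in KO and S100a6 was higher (162 and 63.9 CPM). The directions of the 11 under 10 CPM were not counted. Apoe made up most of both endoderm sums. Of the 5 endoderm genes of at least 10 CPM, 4 were lower in KO and Sparc was higher. Among the 13 under 10 CPM, Col4a1 (4.78 and 1.46 CPM) and Lama1 (6.83 and 3.17 CPM) were higher in KO, and the directions of the rest were not counted. The rule's own endoderm genes, capped at 1 UMI a cell, summed to 9.62 and 5.39 CPM, and its fibroblast genes to 3.16 and 0.709 CPM. Mesoderm genes summed to 9.77 and 9.83 CPM, neuroectoderm genes to 42.5 and 38.7 CPM, trophectoderm genes to 27.3 and 46.2 CPM, germ cell genes to 20.9 and 25.1 CPM, and macrophage genes to 12.9 and 15.3 CPM. The 2-cell-like list had 2 UMIs in KO and 1 in WT.

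The deleted gene was nearly gone from the kept KO cells. Srf (ENSMUSG00000015605) had 3 UMIs in 3 KO cells (0.22 CPM, interval 0.0455 to 0.644) and 184 UMIs in 154 WT cells (8.70 CPM, 7.48 to 10.0). The log2 ratio of KO over WT, with 0.5 counts added to each sum, was -5.08 (-7.59 to -3.73). Which part of the gene was deleted, and which end of the RNA the UMIs tagged, are not given in the sources used here. Its cofactors stayed under the minimum of 10 CPM (mean of the libraries) that genes needed to enter the comparisons. Mkl1 and Mkl2, the myocardin-related factors, had log2 ratios of -0.27 (-0.76 to 0.20) and 0.06 (-0.52 to 0.61), and their relative Myocd had 0 UMIs in both libraries. Of the ternary complex factors, Elk1 (0.09, -0.24 to 0.42) and Elk4 (0.03, -0.45 to 0.48) had intervals that held 0. Elk3 was higher, with 4.70 CPM in KO and 2.22 CPM in WT (1.08, 0.52 to 1.66).

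Across the transcriptome, the KO library differed from WT in few genes by much and in many genes by little. Of 6445 genes of at least 10 CPM, 44 (0.683%) were at least 2-fold lower in KO and 62 (0.962%) at least 2-fold higher. The median log2 ratio was 0.06, with 2675 genes below 0 and 3770 above, and the 10th and 90th percentiles were -0.33 and 0.46. Scaling by the trimmed mean of M-values (TMM), which shifts all genes so that the median is -0.01, gave 56 lower and 51 higher genes. As a floor for these numbers, the kept cells of each library were divided once at random into 2 subsets of equal size. Between the KO subsets 3 genes (0.0465%) were 2-fold apart, and between the WT subsets 2 genes (0.031%). The spread, taken as the distance between the 10th and 90th percentile divided by 2, was 0.40 between the genotypes, 0.19 between the KO subsets and 0.16 between the WT subsets. The genotype difference was thus wider than the sampling of cells within a library, which says nothing of the spread between cultures.

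**Figure D1:**
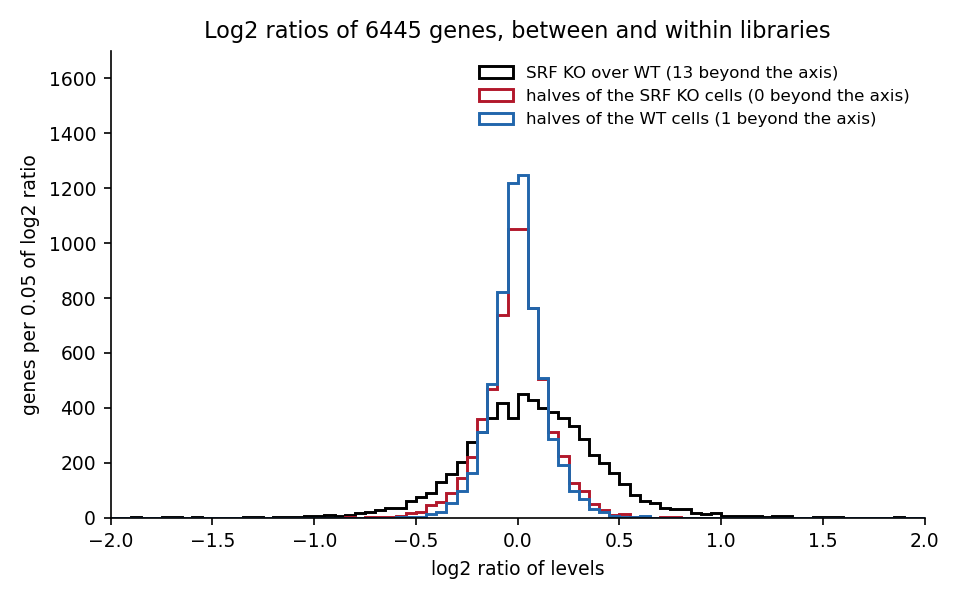
Log2 ratios of 6445 genes (bins of 0.05 on the x axis, number of genes on the y axis) for KO over WT (black) and for random subsets of the cells of each library (KO red, WT blue). The black outline is the widest, with a spread of 0.40 against 0.19 and 0.16.

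Each KO subset was also set against each WT subset. The genes were called on the sums of these same cells, so agreement in sign was largely built in, and the subsets are no replicates. All 44 lower genes kept their side in all 4 pairs of subsets, and 31 were past 2-fold in each. Of the 62 higher genes, 61 kept their side and 38 were past 2-fold in each. The exception was Gm26737, an antisense RNA with 33.9 and 8.72 CPM in the KO subsets and 10.4 and 10.9 CPM in the WT subsets. Genes carried by few cells stood out in the subsets. Rhox6, a homeobox gene, had 5.07 and 44.0 CPM in the WT subsets, and 93.2% of its WT UMIs lay in 5% of the cells. Lepr, the leptin receptor, had 9.20 and 4.47 CPM in the WT subsets.

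**Figure D2:**
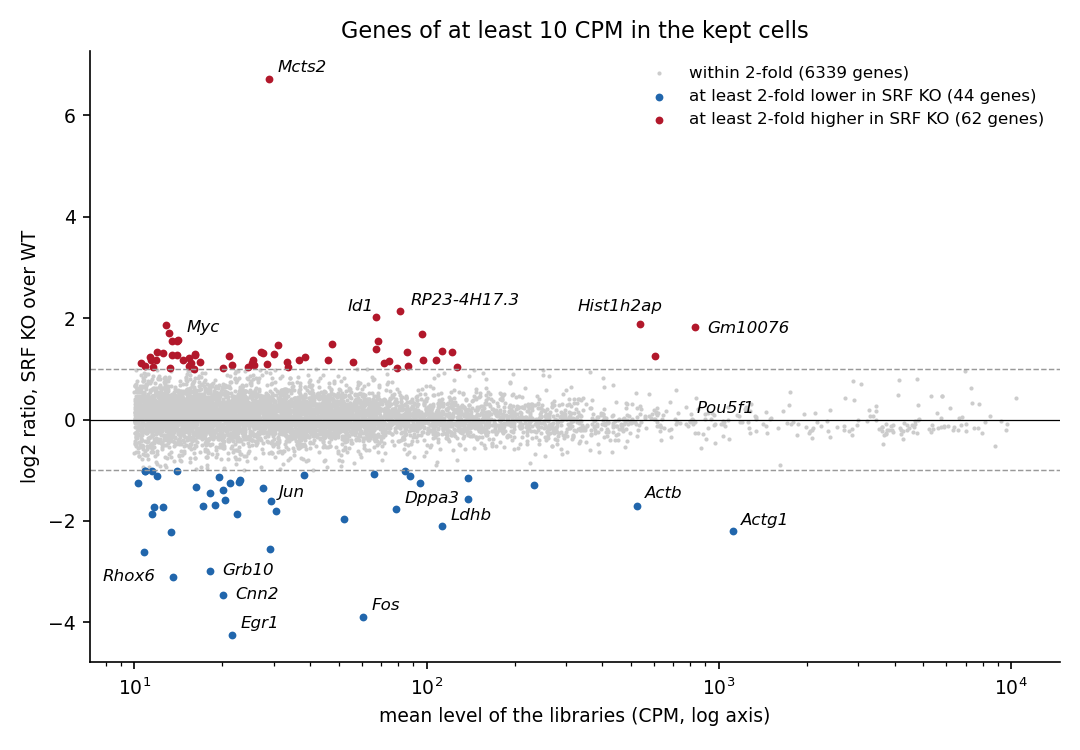
Each point is 1 of 6445 genes, placed by its mean level (CPM, log axis) and its log2 ratio of KO over WT. The 44 genes at least 2-fold lower are blue and the 62 at least 2-fold higher are red, and Mcts2 at 6.73 stands above all others.

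The cytoplasmic actins were both far lower in KO. Actg1, cytoplasmic gamma-actin, had 400 CPM in KO and 1833 CPM in WT (log2 ratio -2.20, interval -2.24 to -2.15). Actb, cytoplasmic beta-actin, had 245 and 800 CPM (-1.71, -1.76 to -1.65). Both were detected in nearly all cells, in 99.2% and 98.6% of KO cells and 100% of WT cells, so the difference was in UMIs a cell. The KO subsets held Actg1 at 408 and 392 CPM and the WT subsets at 1851 and 1815 CPM. Cnn2 (calponin 2, an actin-binding protein) had 3.31 CPM in KO and 36.8 CPM in WT (-3.46, -3.94 to -3.04), and was detected in 8.49% of KO cells and 53% of WT cells. Actb and Actg1 are near-identical over their coding parts, and how reads common to them were counted is not given in the sources used here.

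Other actin-related genes differed less. Of 15 actin-binding and contractile genes at the minimum (of 19 listed), 13 had log2 ratios below 0 and 1, Cnn2, was at least 2-fold lower, and their median was -0.40 against 0.06 for all genes. Over all genes 2675 of 6445 were below 0 and 0.683% were 2-fold lower. Tpm1, a tropomyosin that coats actin filaments, had 32.5 and 56.9 CPM (-0.80), and Tpm4 had 22.8 and 41.9 CPM (-0.88). Tpm4 lies on chromosome 8, and KO cells of usual chromosome 8 share held it at 14.2 CPM, against 31.4 CPM in those of raised share. Myl12a, a regulatory myosin light chain, had 181 and 289 CPM (-0.68). Of 23 actin turnover genes, 13 were below 0, and their median was -0.07. Wdr1, which speeds the disassembly of filaments with cofilin, was the 1 member past 2-fold, at 14 and 32.1 CPM (-1.20, -1.44 to -0.97), while Pfn1 (profilin 1) was at 0.02 and Tmsb4x (a thymosin that binds actin monomers) at 0.54. Of 19 focal adhesion genes, 10 were below 0 (median -0.05), and the median was 0.26 in KO cells of usual chromosome 8 share and -0.13 in those of raised share. Cyr61, a matricellular protein, was lower (8.89 and 28.7 CPM, -1.69, -1.99 to -1.41), as was Fhl1, a LIM-domain protein (7.57 and 15.5 CPM, -1.03, -1.36 to -0.71). Itgb1, the integrin beta 1 chain, was higher (43.4 and 24.8 CPM, 0.81), and it too lies on chromosome 8.

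The binding motif of SRF was searched in RefSeq promoters (250 bases before to 50 bases after each start, build GRCm38.p6). The CArG box reads alike on both strands. It was found in 3 of 36 lower genes with a promoter in the table (8.33%, interval 1.75 to 22.5), namely Actg1, Cnn2 and Fhl1. Actb, Egr1 and Cyr61 were among the lower genes that were not searched. Boxes outside the window were not sought in any gene, so a gene without a match may still carry a box farther from its start. Among all genes at least 1.5-fold lower the box was found in 5 of 148 (3.38%, 1.11 to 7.71). Among higher genes it was found in 1 of 39 (2.56%, 0.0649 to 13.5), Herpud1, and among all genes of at least 10 CPM in 83 of 5241 (1.58%). The table's promoters held it in 535 of 32851 cases (1.63%). The stretches from 150 to 41 bases before the start of Srf itself (chr17:46556203-46556312, minus strand), Cnn2 (chr10:79988450-79988559, plus strand) and Actg1 (chr11:120348536-120348645, minus strand) are shown because they carry the box in the deleted gene and in the strongest contractile and actin differences. The capitals mark the CArG boxes, which begin 82 and 62 bases before the start in Srf, 56 in Cnn2 and 90 in Actg1.
Srf: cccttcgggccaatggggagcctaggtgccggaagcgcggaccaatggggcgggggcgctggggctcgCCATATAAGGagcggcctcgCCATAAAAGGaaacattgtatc
Cnn2: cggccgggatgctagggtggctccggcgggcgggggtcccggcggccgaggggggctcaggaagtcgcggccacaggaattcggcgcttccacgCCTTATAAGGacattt
Actg1: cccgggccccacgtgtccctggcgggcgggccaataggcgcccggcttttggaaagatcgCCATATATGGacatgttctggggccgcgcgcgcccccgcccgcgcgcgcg
A match describes these letters only and is no measure of binding.

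Egr1 and Fos, both immediate early genes, had the lowest log2 ratios of the 6445 genes. Egr1, a zinc finger factor induced by serum, had 29 UMIs (2.13 CPM) in KO and 868 UMIs (41 CPM) in WT, a log2 ratio of -4.24 (interval -4.85 to -3.73). It was detected in 5.38% of KO cells and 49.1% of WT cells. Fos, a subunit of the AP-1 factor, had 7.64 and 113 CPM (-3.89, -4.19 to -3.61), in 14.1% and 72.0% of cells. Its relative Fosb (8.08 and 26.3 CPM, -1.70) and its partner Jun (14.5 and 44.0 CPM, -1.60) were lower too. All 4 genes were lower in KO in every pair of subsets, which were drawn from the same cells and are no separate support. Not all immediate early genes were. Of 18 immediate early genes at the minimum, 4 were at least 2-fold lower and 1 at least 2-fold higher, with 12 below 0 and a median of -0.27. Over all genes 0.683% were 2-fold lower and 0.962% 2-fold higher, and 2675 of 6445 were below 0. Junb (-0.17), Ier2 (0.09), Mcl1 (0.17) and Nr4a1 (0.19) lay close to 0. Junb and Ier2 lie on chromosome 8, however. KO cells of usual chromosome 8 share held Junb at 29.3 CPM and Ier2 at 145 CPM. In WT cells of usual share the values were 49.9 and 176 CPM, and in KO cells of raised share 60.2 and 242 CPM. Myc, which drives growth and is also induced by serum, went the other way, with 21.1 and 7.14 CPM (1.56, 1.27 to 1.86) and detection in 40.2% and 16.5% of cells. Over the same 18 genes, KO cells with the usual chromosome 8 share had a median of -0.63 against WT cells with that share, and KO cells with a raised share -0.05.

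**Figure D3:**
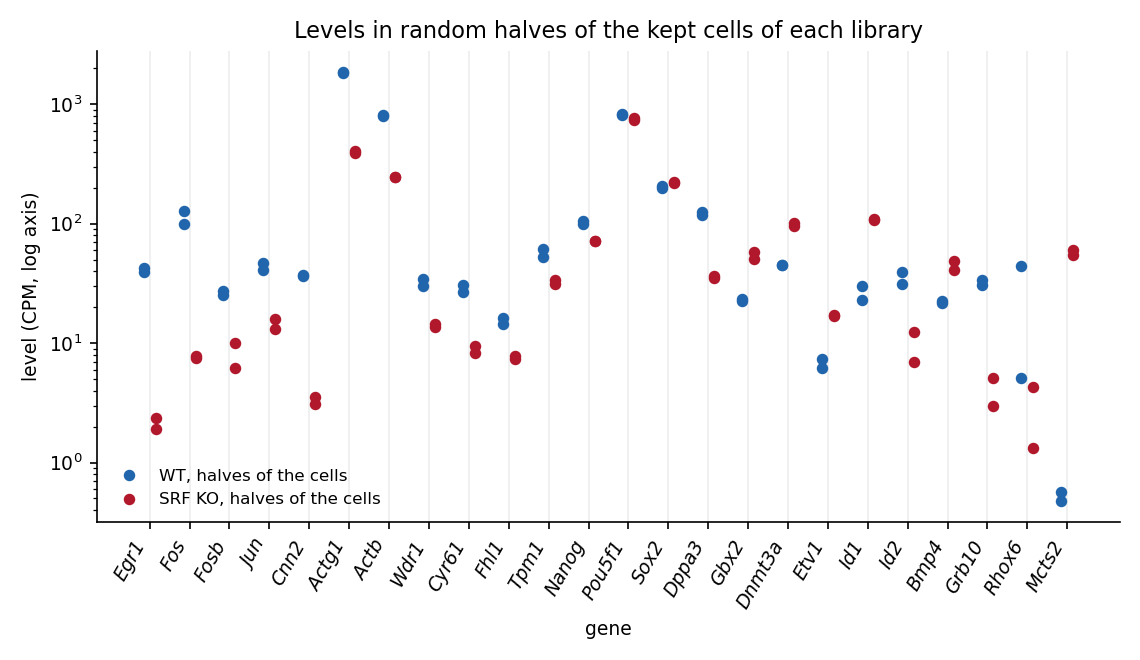
Levels (CPM, log axis) of 24 genes in random subsets of the kept WT cells (blue) and KO cells (red), 2 points a library. For Egr1, Fos, Cnn2, Actg1 and Actb the KO points lie far below the WT points, for Pou5f1 and Sox2 they lie close, and for Rhox6 the WT subsets lie far apart, at 5.07 and 44.0 CPM.

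The core pluripotency factors differed little. Of 10 core genes 8 were above 0, none was past 2-fold, and their median was 0.18, while 3770 of all 6445 genes were above 0. Few of all genes were past 2-fold either, 0.962% higher and 0.683% lower. The list's median was 0.36 in KO cells of usual chromosome 8 share and -0.01 in those of raised share. Pou5f1 had 751 CPM in KO and 816 CPM in WT (-0.12, -0.16 to -0.09), and Sox2 had 221 and 201 CPM (0.13, 0.07 to 0.20). Nanog was the lowest of the list, with 71.3 and 102 CPM (-0.51, -0.62 to -0.40). It differed between cells of the same library: KO cells with the usual chromosome 8 share held it at 93.4 CPM and those with a raised share at 49.2 CPM, and the WT values were 105 and 75.6 CPM. In cells with the usual share, KO and WT were thus closer. L1td1, an RNA-binding protein of pluripotent cells, was the highest (154 and 119 CPM, 0.38).

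Genes of the naive state went both ways. Of 19 genes, 7 were below 0 and 12 above, with a median of 0.14, while 3770 of all 6445 genes were above 0. Gbx2, a homeobox gene downstream of LIF and STAT3, was the 1 member past 2-fold, with 54.1 and 22.9 CPM (1.24, 1.07 to 1.41). Over all genes 0.962% were 2-fold higher and 0.683% 2-fold lower. Lifr, the LIF receptor (0.67), Fgf4 (0.63), Nr5a2 (0.52) and Zfp42 (0.44) were above 0. Spp1, a secreted phosphoprotein (160 and 290 CPM, -0.86), Tfcp2l1 (-0.36) and Klf4 (-0.33) were below, and Esrrb was at 0.00 (-0.12 to 0.13). Klf4 split as Nanog did, with 298 and 200 CPM in KO cells of usual and raised chromosome 8 share. Esrrb had 76.4 and 50.7 CPM in these KO cells, and 63.4 and 63.2 CPM in WT cells of usual and raised share. The list's median was 0.27 in KO cells of usual share and -0.07 in those of raised share, each against WT cells of usual share, so the sign depended on that share. It was -0.085 over the list's genes of at least 50 CPM.

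Single markers of the early embryo stood apart. Dppa3 (Stella), which protects methylation in the early embryo, had 35.8 and 121 CPM (-1.76, -1.91 to -1.62). Ooep, an oocyte protein, had 86.0 and 191 CPM (-1.15), and Sox15 had 12.2 and 26.8 CPM (-1.13). Dppa5a, an RNA-binding protein of pluripotent cells, had 7284 and 10414 CPM (-0.52), while Dppa2 (0.31) and Dppa4 (0.01) were not lower. Ooep and Sox15 were chosen after their values were seen. Of 10 primed state genes, 5 were below 0 and 5 above (median -0.12). Dnmt3a, a de novo DNA methyltransferase, was past 2-fold with 98.2 and 45.0 CPM (1.12), while Dnmt3l, its catalytically inactive partner, had 73.9 and 122 CPM (-0.72). Fgf5, the classical primed marker, had 3 and 14 UMIs.

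Genes of FGF signalling and its ERK feedback, the pathway that also activates SRF through its ternary complex cofactors, had the highest median of the signalling lists. Of 11 genes 9 were above 0, against 3770 of all 6445 genes, and the median was 0.54, against 0.06 for all genes. Etv1, an ETS factor downstream of ERK, had 17.1 and 6.80 CPM (1.32, 1.02 to 1.63), and its relative Etv4 had 142 and 76.6 CPM (0.89). The ERK inhibitors Spry4 (41.3 and 22.8 CPM, 0.86), Spred1 (0.66) and Dusp6 (0.47) were also above 0, and Spry1 (-0.16) and Etv5 (-0.07) were below. The median was above 0 in both kinds of KO cells, at 0.68 with the usual chromosome 8 share and 0.55 with a raised share. Of the 11 genes 1, Etv1, was past 2-fold, while over all genes 0.962% were 2-fold higher and 0.683% 2-fold lower.

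In the BMP pathway the Id genes, which block differentiation by binding helix-loop-helix factors, moved in opposite directions. Id1 had 108 CPM in KO and 26.6 CPM in WT (2.02, 1.88 to 2.17), Id2 had 9.70 and 35.3 CPM (-1.86, -2.14 to -1.60), and Id3 had 39.5 and 48.2 CPM (-0.29). Id1 was detected in 66.7% of KO cells and 31.1% of WT cells. KO cells with the usual chromosome 8 share held Id1 at 70.5 CPM and those with a raised share at 146 CPM, against 23.7 CPM in WT cells with the usual share. Bmp4, a BMP ligand, had 45.0 and 22.0 CPM (1.03, 0.85 to 1.21), and with 8 BMP genes the median was 0.22. Nodal, a ligand that maintains the primed state, had 19 and 11.2 CPM (0.76). KO cells of usual chromosome 8 share held it at 25.1 CPM and those of raised share at 13 CPM, against 11.4 CPM in WT cells of usual share. Its receptor Acvr2b had 32.0 and 17.7 CPM (0.85). Lefty1, a secreted inhibitor of Nodal, had 77.7 and 140 CPM (-0.85). Lefty1 varied among cells: KO cells held it at 53.7 CPM with the usual and 102 CPM with a raised chromosome 8 share. Of 10 Wnt genes 7 were above 0, near the share of all genes (3770 of 6445), with a median of 0.07 (0.24 in KO cells of usual and -0.01 in those of raised chromosome 8 share). They ran from Lef1 (-0.54), a nuclear effector, to Lgr4 (0.66), an R-spondin receptor.

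**Figure D4:**
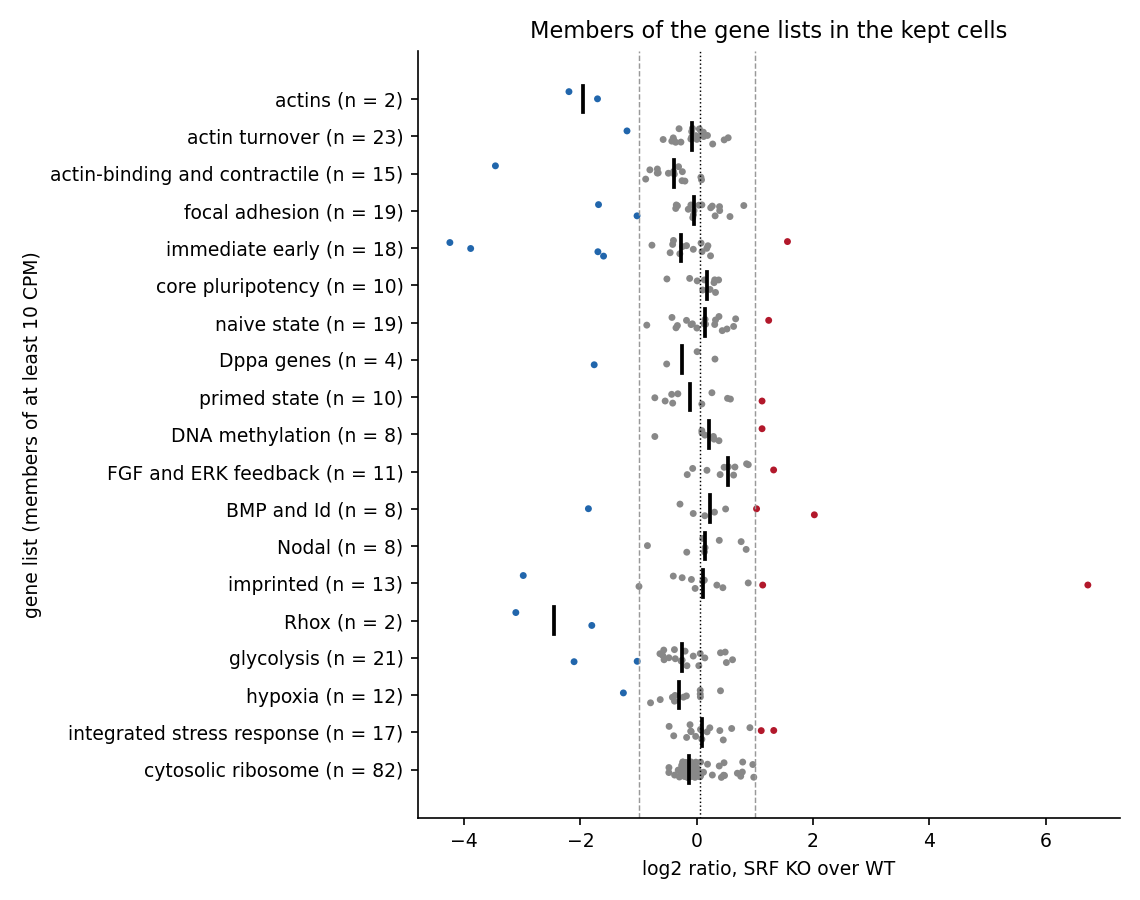
Log2 ratios of KO over WT (x axis) for the members of 19 gene lists of at least 10 CPM. Points are genes (blue at least 2-fold lower, red at least 2-fold higher, grey within 2-fold), bars are medians of the lists, the dotted line is the median of all genes (0.06), and dashed lines mark 2-fold. Actin-binding genes centre at -0.40 and genes of FGF and ERK feedback at 0.54.

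Imprinted and germline genes held several of the largest single differences. Imprinted genes are expressed from 1 parental copy. Mcts2, an imprinted retrogene of a translation factor, had 782 UMIs (57.5 CPM) in KO and 11 UMIs (0.520 CPM) in WT, a log2 ratio of 6.73 (interval 5.94 to 7.80), and was detected in 75.2% and 1.39% of cells. It lies on the same strand inside H13, a signal peptide peptidase (chromosome 2, 152687035 to 152687946 within 152669461 to 152708670, GRCm38). H13 had 15.9 and 31.6 CPM (-0.99, -1.22 to -0.77), and reads of the overlap cannot be told apart by the deposited counts. Grb10, an imprinted inhibitor of growth factor receptors, had 4.04 and 32.2 CPM (-2.98, -3.42 to -2.60). Peg10, a gene of retrotransposon origin, had 77.2 and 35.2 CPM (1.13). The other members ran from -0.40 (Gab1) to 0.89 (Kcnq1ot1), and the median of 13 imprinted genes was 0.10.

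The X-linked homeobox genes Rhox5 and Rhox6 were lower in KO and carried by few cells. Rhox5 had 13.6 and 47.5 CPM (-1.80, -2.04 to -1.58), with detection in 8.90% and 21.8% of cells. Rhox6 had 2.79 and 24.4 CPM (-3.11), with detection in 3.11% and 9.90%. They lie 18034 bases apart. In both libraries most of their UMIs sat in 5% of the cells, 90.3% and 70.5% for Rhox5. Tsix, the antisense RNA of Xist on the X chromosome, had 20.1 and 6.14 CPM (1.70, 1.4 to 2.02), and whether the counting used the strand is not given in the sources used here. Lncenc1, a noncoding RNA of naive cells, had 21.2 and 82.9 CPM (-1.97). Within KO it was at 35.5 CPM in cells with the usual chromosome 8 share and 6.77 CPM in those with a raised share, and in WT at 87.2 and 44.7 CPM.

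Metabolic genes were lower for a few members. Ldhb, a lactate dehydrogenase subunit, had 42.6 and 184 CPM (-2.11, -2.24 to -1.98), and Aldoc, an aldolase, 9.18 and 18.7 CPM (-1.02). Of 21 glycolysis genes 14 were below 0 (median -0.25), Gapdh at -0.37 and Ldha at -0.38 among them, while Pgk1 (0.51) and Hk2 (0.62) were above. Of 12 hypoxia genes 8 were below 0 (median -0.30), and Bnip3, a mitophagy receptor, was past 2-fold (56.0 and 134 CPM, -1.26, -1.38 to -1.14). In the respiratory chain list the 1 member past 2-fold was Ndufa4l2, a subunit that is itself induced by hypoxia (15.5 and 39.5 CPM, -1.35), and the median of 81 genes was -0.06. Fabp3, a fatty acid binding protein, had 70.2 and 207 CPM (-1.56). Ifitm1, a membrane protein known from antiviral defence, had 134 and 331 CPM (-1.30), and Ifitm2 (-0.63) and Ifitm3 (-0.64) were below 0 too. Cholesterol synthesis genes were below 0 for 17 of 21 (median -0.14) and cytosolic ribosomal protein genes for 61 of 82 (median -0.13), with none past 2-fold. Over all genes 2675 of 6445 were below 0 (median 0.06), and only 0.683% were 2-fold lower and 0.962% 2-fold higher. Krt18, a simple epithelial keratin, had 10.2 and 30.7 CPM (-1.58), with 6.16 and 14.3 CPM in KO cells of usual and raised chromosome 8 share, and 73.3% of its WT UMIs sat in 5% of the cells.

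Stress lists lay close to all genes, with single members past 2-fold. Slc7a5, an amino acid transporter on chromosome 8, had 122 and 48.8 CPM (1.33, 1.21 to 1.44), and in cells of usual chromosome 8 share 106 and 45.7 CPM. Chac1, a glutathione-degrading enzyme induced by ATF4, had 34.4 and 15.9 CPM (1.11), but the ATF4 targets Asns (-0.39) and Ddit3 (-0.47) were below 0, and the median of 17 integrated stress response genes was 0.09. Its sign depended on the chromosome 8 share, at -0.13 in KO cells of usual share and 0.32 in those of raised share. Of 13 p53 targets 10 were above 0 (median 0.14), against 3770 of all 6445 genes. Perp had 50.8 and 22.5 CPM (1.18), and Mdm2, which degrades p53, was at 0.76. Cell cycle lists lay close to all genes, at 0.14 for 39 S phase genes and 0.11 for 53 G2 and M phase genes. Plk4, which starts centriole duplication, had 97.3 and 37.3 CPM (1.38, 1.26 to 1.51).

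Further genes with large differences follow. Hist1h2ap, a histone gene, had 846 and 228 CPM (1.89), and Gm10076, a noncoding RNA, 1296 and 364 CPM (1.83); near-identical copies make the counts of both uncertain. RP23-4H17.3 had 132 and 30.2 CPM (2.13), and KO cells with the usual chromosome 8 share held 205 CPM and those with a raised share 59.9 CPM. Usp50, of the ubiquitin protease family, had 147 and 45.5 CPM (1.69). Slamf1 (1.87), Plaur, the urokinase receptor (1.55), Lepr (1.55), the antisense RNA Gm13075 (1.54), the lysyl oxidase Loxl2 (1.49) and Dqx1 (1.47) were at least 2-fold higher too. S100a6, a calcium-binding protein also listed for fibroblasts, had 162 and 63.9 CPM (1.34). On the lower side stood S100a13 (-2.61), Klhl13 (-2.55), Fxyd6 (-2.21) and Mok (-1.87). S100a13 and S100a6 lie 88301 bases apart and moved in opposite directions.

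The share of chromosome 8 divided the cells of both libraries. The 374 genes of that chromosome had a median log2 ratio of 0.27, and the medians of the other autosomes and X lay between -0.04 and 0.08. The 13 mitochondrially encoded genes had a median of 0.31, and the Y chromosome had 1 gene of at least 10 CPM. The Y-linked genes Ddx3y, Eif2s3y, Kdm5d and Uty were all under that minimum. They summed to 61 UMIs (4.48 CPM) in KO and 44 UMIs (2.08 CPM) in WT. Of the 44 lower genes 35 were past 2-fold in KO cells of both kinds, and of the 62 higher genes 35 were. Of the higher genes 16 passed only in cells with the usual share and 11 only in those with a raised share.

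Over all deposited cells, and over deep cells before the other criteria, more genes were higher in KO than in the kept cells. Over all deposited cells 99 genes were at least 2-fold higher in KO, and 33 of them (33.3%) were among the 62 of the kept cells, of which they made up 53.2%. Of 35 lower genes over all cells, 31 (88.6%) were among the 44 kept, or 70.5% of those. In the 692 KO and 750 WT cells with at least 15000 UMIs and no other criterion, 41 genes were lower and 123 higher. Srgn, a proteoglycan core protein listed for primitive endoderm, had 103 and 4.12 CPM over all cells and 3.09 and 0.0945 CPM in the kept cells. Sparc, a matrix glycoprotein, had log2 ratios of 2.11 over all cells and 0.42 in the kept cells, and Serpinh1, a collagen chaperone, of 2.03 and -0.04. The contractile genes Tagln and Myl9, under the minimum in the kept cells, had 1.82 and 2.22 over all cells and -1.90 and -2.30 in the kept cells. The kept values rest on few cells: 99.4% of Tagln's WT UMIs lay in 5% of the cells, the pairs of subsets ran from -2.84 to 0.38, and Myl9 had 4 and 34 UMIs. The median of the actin-binding and contractile list was 0.01 over all cells and -0.40 in the kept cells. Egr1 went from -2.15 to -4.24. The rule chose cells on genes of both removed cell types, so these shifts are a description.

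Noise, named in the title of the series, was measured on cells thinned to 15000 UMIs each. It was taken as CV2, the squared coefficient of variation of a gene over cells. It was compared for 2696 genes whose means reached 0.5 thinned UMIs and lay no more than 0.5 apart (log2) between the libraries. The median log2 ratio of CV2, KO over WT, was -0.03, and 46.6% of genes were higher in KO. Between random subsets it was -0.01 in KO and 0.01 in WT. With the Poisson part of CV2 taken off the ratio was 0.034 (2399 genes). Between subsets that measure was -0.047 in KO and 0.027 in WT, so 0.034 lay just above the WT value and was smaller in size than the KO value. For the 783 genes with means of at least 2 thinned UMIs the ratio of CV2 itself was 0.04, so no direction held over these measures. In the 692 KO and 750 WT cells with at least 15000 UMIs, before the other criteria, these ratios were 0.07 (61.5% of genes higher in KO) and 0.47. The median correlation between cells was 0.730 in KO and 0.739 in WT, a difference of -0.0091, and the subsets lay within 0.729 to 0.730 in KO and at 0.739 in WT. Before the other criteria the difference was -0.0195 (0.718 and 0.738).

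Single gene groups departed from the median noise ratio of all genes in both directions. Of 76 cytosolic ribosomal protein genes 60 had a higher CV2 in KO, with a median log2 ratio of 0.30. Between random subsets of cells the abundant ones among them (72 genes with means of 20 thinned UMIs or more) had medians of -0.01 in KO and 0.05 in WT, against 0.30 between the libraries. The 42 other genes of such means had a median of 0.12 between the libraries, and -0.09 and 0.01 between subsets. In cells with the usual chromosome 8 share, 60 of 72 ribosomal protein genes were higher, with a median of 0.41. The ribosomal proteins Rps4x (0.91) and Rps3 (0.88), the chaperone Hsp90ab1 (1.02), the mitochondrial mt-Co1 (0.91) and the phospholipase Pla2g1b (0.90) had the highest ratios. For Hsp90ab1 the CV2 was 0.128 in KO and 0.0634 in WT, with 0.126 and 0.129 in the KO subsets and 0.0656 and 0.0614 in the WT subsets. The lowest ratios were those of Zfos1 (-1.44), the lipid carrier Apoe (-1.44), the galectin Lgals1 (-1.33), Sparc (-1.15) and the chaperone Hsp90b1 (-1.05), which were more variable in WT. Of 8 core pluripotency genes 2 had a higher CV2 in KO (median log2 ratio -0.12). These were Pou5f1 and Sox2: the CV2 of Pou5f1 was 0.172 in KO and 0.163 in WT, and that of Sox2 0.579 and 0.508. Zfp42 had a lower CV2 in KO, 0.894 against 1.04. Esrrb, with equal means over the kept cells, had 1.55 and 1.26. Its KO level differed with the chromosome 8 share (76.4 CPM in usual and 50.7 CPM in raised), and the part of this in its CV2 was not tested. Nanog had 1.77 and 1.21, with 1.64 and 1.89 in the KO subsets and 1.28 and 1.12 in the WT subsets. Its means of 1.09 thinned UMIs in KO and 1.56 in WT lay too far apart for it to count among the genes compared. A lower mean raises the Poisson part of CV2, and how much of the difference this made was not tested. Of 10 naive state genes 7 had a higher CV2 in KO (median 0.28), as had all 9 cholesterol synthesis genes (0.24). The largest departure of a list was downward: of 9 lysosome, ferritin and lipid binding genes 1 was higher in KO (median -0.49). Of 13 heat shock and chaperone genes, Hsp90ab1 among them, 4 were higher (median -0.28).

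**Figure D5:**
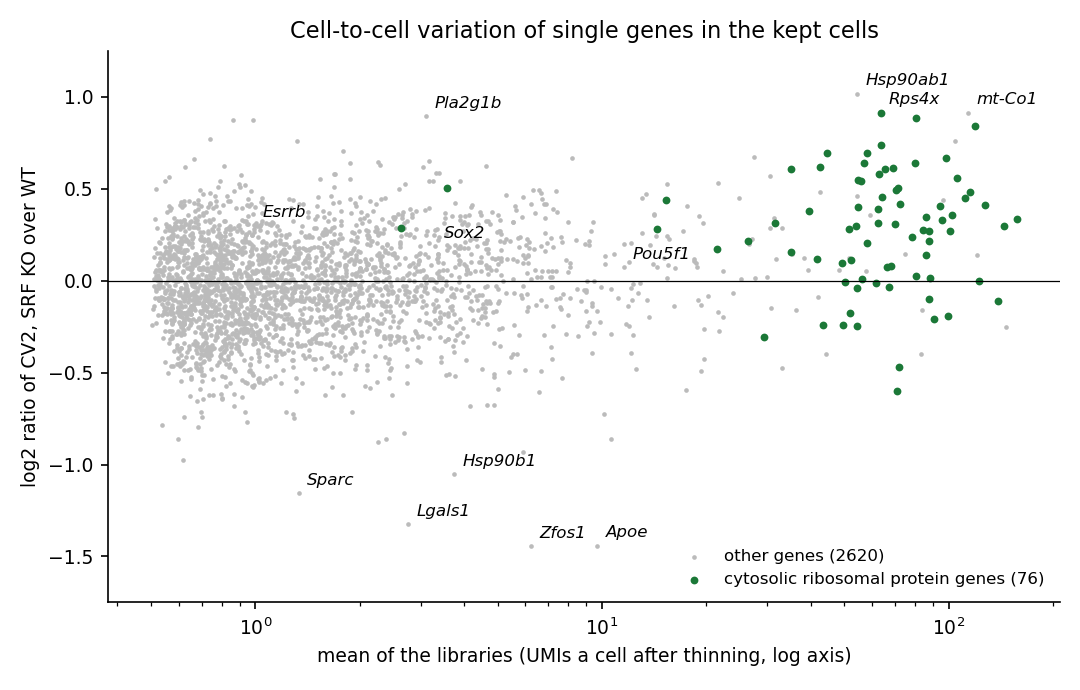
Log2 ratio of CV2, KO over WT (y axis), against the mean of the libraries in thinned UMIs a cell (x axis, log) for 2696 genes. The 76 ribosomal protein genes (green) sit mostly above 0, with a median of 0.30, and the other genes (grey) spread about 0.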

How the data were processed

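The deposited files hold whole-number counts of UMIs per gene and cell, not normalised, per the file headers, for 27998 genes. Cell Ranger 2.0.0, Seurat 3.1.1 and the build mm10 are named, with no role given, per the submitters' processing notes; the annotation, cell calling, strand rule and handling of multiply mapped reads are not given in the sources used here, so values of near-identical and overlapping genes are uncertain. Libraries were made on the 10x Genomics Chromium platform, per the labels' protocols. The members and gene lists were chosen with earlier results of these data known.

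Counts were summed over kept cells, scaled to CPM, and compared as log2 ratios with 0.5 counts added. Ratio intervals are conditional on the total, those of shares Clopper-Pearson. At least 2-fold counted as called. Named genes were the 15 lowest and 15 highest of at least 10 CPM detected in at least 5% of cells of the higher library (without the rule's and mitochondrially encoded genes), list members past 2-fold or, failing any, a list's lowest and highest, the markers, Srf and its cofactors, and for noise the 5 lowest and highest. Other names were chosen after their values were seen, among them mt-Nd3 (log2 ratio 1.26), a mitochondrially encoded gene counted among the 62. Chromosome 8 shares left out ribosomal protein genes and those above 500 CPM. Doublets were not removed; Scrublet in scanpy 1.11.5 called 2 KO cells (1 of them kept) and 6 WT cells (6 kept), with few calls, so doublets may remain. The scripts were tested on simulated data. Positions come from GENCODE M21 (GRCm38), matched for 27645 genes. Alternatives were TMM scaling (edgeR 4.0.16), other totals, weighting cells alike, other minima of CPM and UMIs, stricter endoderm and doublet rules and cells of the usual chromosome 8 share. Python 3.11.15, numpy 2.4.6, scipy 1.17.1, pandas 2.3.3 and matplotlib 3.10.9 were used.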

Additional observations from a re-analysis of the deposited data

How the results depend on the processing

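No paired analysis was possible because neither genotype has replicate libraries. No alternative bears on the spread between cultures. A minimum of 1 CPM gave 211 lower and 258 higher genes and a spread of 0.50, as it admits more genes. A minimum of 50 CPM gave 13 and 19, with medians of -0.25 for actin-binding and contractile genes, -0.40 for immediate early genes and -0.085 for naive state genes, a change of sign. In cells with the usual chromosome 8 share there were 56 lower and 102 higher genes, and the medians were -0.68 for immediate early genes, 0.27 for naive state genes and 0.037 for chromosome 8 genes; the last follows from the choice of cells. For the others the cause was not tested. Without thinning the noise ratio was 0.03, against -0.03. TMM scaling gave 56 lower genes of 107 called (52.3%, against 41.5%). The Srf ratio, noise ratio and correlation did not move past the limits set under the settings tried. Limits were 1.5 times for counts, 0.1 for log2 medians and noise ratios, and 0.01 for the correlation. For single genes the limit was 0.5 of the width of their interval. The share of promoters with a CArG box fell from 8.33% to 3.38% when genes at least 1.5-fold lower were taken. Its limit was the wide interval of the first share (1.75 to 22.5), which held 3.38%, so this share was not shown to be stable. In deep cells before the other criteria, which are not among the settings tried, the correlation difference was -0.0195 and the noise ratio above Poisson 0.47. Of 747 values of 83 named genes under alternatives, 675 did not move and 72 did; of the 51 genes past 2-fold, 0 changed sign and 7 came within it under at least 1 alternative (Aldoc, Bmp4, Chac1, Dqx1, Fhl1, Peg10 and Perp). The ribosomal protein genes' noise ratio, whose alternatives were chosen after seeing the data, moved only in cells with the usual chromosome 8 share, to 0.41. Depth limits genes under 10 CPM.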

Other observations

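Log2 ratios in the kept cells differed with transcript length. Over 5 groups of like size, ordered from the shortest to the longest transcript of GENCODE M21, the medians were -0.09 (1288 genes), -0.03 (1289), 0.06 (1287), 0.14 (1288) and 0.21 (1288). The longest group held 1 gene at least 2-fold lower and 18 at least 2-fold higher, and the shortest 13 and 16. The shortest transcripts went the other way: 74 genes under 600 bases had a median of 0.10, with 0 lower and 4 higher, and the 20 shortest ribosomal protein genes had 0.02 against -0.14 for the 62 others. The part of this in the results above was not tested.

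Some of the 2-fold genes were neighbours within 100000 bases: Mcts2 and Id1 (both higher, 48305 bases apart), Steap2 and Steap1 (both higher, log2 ratios 1.27 and 1.17), Rhox5 and Rhox6 (both lower), Gm26737 and Mcam (both higher), and S100a13 and S100a6 (opposite directions).

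Of cells failing a single criterion, 132 KO and 17 WT cells failed the endoderm genes alone, 97 and 156 the minimum of UMIs alone, and 48 and 9 the lower mitochondrial limit alone. Cells that failed the fibroblast genes alone numbered 8 and 4.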
